A study of Homo sapiens with 2 samples.

Results

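The mRNAs described here are those of ezrin (VIL2 on the array, EZR in current RefSeq), radixin (RDX), moesin (MSN), merlin (NF2) and the scaffold proteins NHERF1 (SLC9A3R1) and NHERF2 (SLC9A3R2). They were chosen by name, with earlier results of these data known. Every array probe that the deposited files assign to 1 of these 6 genes was taken, out of 30484 gene names on the array. This gave 13 array probes of 41000. VIL2 had 2, MSN 4, NF2 4, and RDX, SLC9A3R1 and SLC9A3R2 had 1 each. Each was spotted once per array, none carried an outlier flag and none was saturated.

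RNA of HEK-293 cells, a human embryonic kidney cell line, was taken after transfection of a miR-204 mimic and hybridised together with RNA of HEK-293 cells that received scrambled oligonucleotides, the control, each at 75 nM for 48 h according to the labels. The question was which mRNAs change when miR-204 is raised. The RNAs were put on 2 two-colour Agilent arrays, with control RNA in Cy3 and miR-204 RNA in Cy5 on the first and the dyes exchanged on the second, the dye swap. They are called the forward and the swapped array here. No label or method names a second transfection, so both arrays together were counted as 1 replicate, and the spread between cultures is not known. The results therefore rest on no test between the conditions, and tests were run only as alternatives, given at the end. Every ratio below is the log2 of miR-204 over control, with the sign of the swapped array turned so that it reads the same way.

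Ezrin, radixin and moesin, the ERM proteins, tie the actin cytoskeleton to the plasma membrane. A FERM domain at the amino end binds membrane proteins and the lipid PIP2, and the carboxyl end binds actin once the folded, closed form has been opened by PIP2 and by phosphorylation. Merlin shares the FERM domain, lacks the actin-binding end of the ERM proteins and acts as a tumour suppressor upstream of the Hippo kinases. NHERF1 and NHERF2 carry PDZ domains that hold channels, transporters and receptors of the apical membrane, and their tails bind the ERM proteins, which makes them central to the brush border of kidney and gut epithelia.

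A mature miRNA pairs with target mRNAs mainly through its seed, bases 2 to 8 from the 5′ end, and lowers their stability or translation. The sequence of miR-204 is shown because it is the agent of the experiment, and that of miR-211 because the seed is the same. The labels do not give the arm of the mimic. The 5p arm, the one usually meant by miR-204, lies at chr9:70810031-70810052 on the minus strand of GRCh38.p14, and miR-211-5p at chr15:31065095-31065116 on the minus strand. Both are from RefSeq, with the seed in capitals.
hsa-miR-204-5p: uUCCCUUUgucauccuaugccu
hsa-miR-211-5p: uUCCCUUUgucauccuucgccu
They were the 2 mature miRNAs with this seed in the RefSeq table, and 20 of their 22 positions were the same. Sites for this seed in the member mRNAs were not analysed here, as no UTR sequences were used.

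All 13 array probes were counted, that is, well above background by the flag of the scanner software on both arrays in control RNA or on both arrays in miR-204 RNA. In all 4 channels 11 of them were well above background. The cells' identity was read from flags alone. Of 8 genes usually expressed in HEK-293 cells, 7 had an array probe that passed in all 4 channels, and PAX2 had none that passed in any. Of 5 markers of blood, liver and endothelium, PTPRC, CD3E, ALB and PECAM1 were not well above background in any channel, and VWF had 1 of its 2 array probes well above background in all 4. Over the 25270 probes counted on the array the ratios of the arrays did not move together, with a Pearson r of -0.03 (probes are not independent replicates). The SD of these ratios was 0.45 on the forward array and 0.33 on the swapped array.

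**Figure D1:**
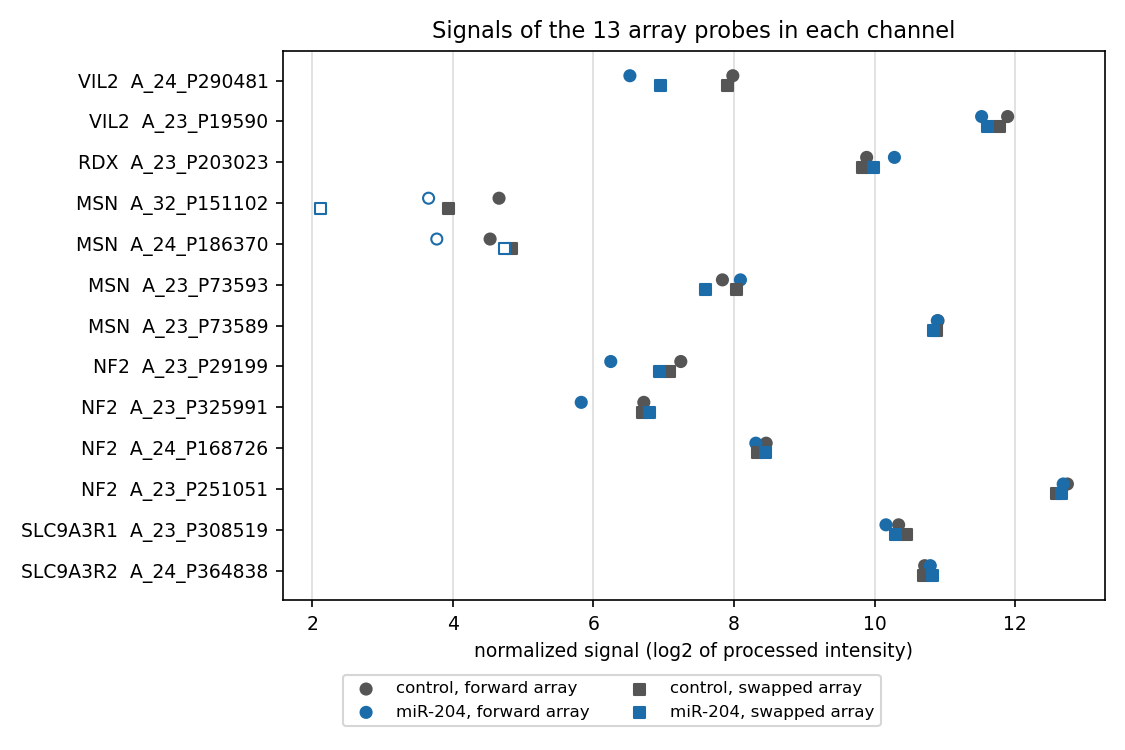
Normalized signal of each of the 13 array probes, as log2 of processed intensity, in control RNA (grey) and miR-204 RNA (blue) on the forward array (circles) and the swapped array (squares). Open symbols were not well above background, which concerns the miR-204 channels of 2 MSN array probes. Levels are read within a row, since different array probes are not on a common scale.

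In miR-204 RNA, 1 of the 2 ezrin array probes was lower by at least 2-fold in the mean of both arrays, with the same sign on each. It was the only one among the 11 member array probes measured in all 4 channels, where 0.125% of the 23159 such probes on the array were lower by this rule. The members were chosen with earlier results of these data known, so this share is background and not a test of ezrin. Over all counted probes the rule gave 2 of 13 members, beside 0.518% of the array. The other of these, the moesin array probe A_32_P151102, was counted through control RNA alone and has no measured fold, so nothing is read from the count of 2. No member was higher by 2-fold, beside 0.123% of counted probes. The remaining 11 had mean ratios from -0.57 to 0.27. Without a fold threshold, 7 of 13 were lower on both arrays, 2 of them dim MSN array probes, beside 23.2% of counted probes. Higher on both arrays were 2 of 13, beside 24.2%. The median of the 13 mean ratios was -0.17, and that of all counted probes was 0.001. The 2 dim MSN array probes were counted through control RNA alone, which favours low ratios. Nothing is therefore read from the count of 7 or from the median of the members.

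**Figure D2:**
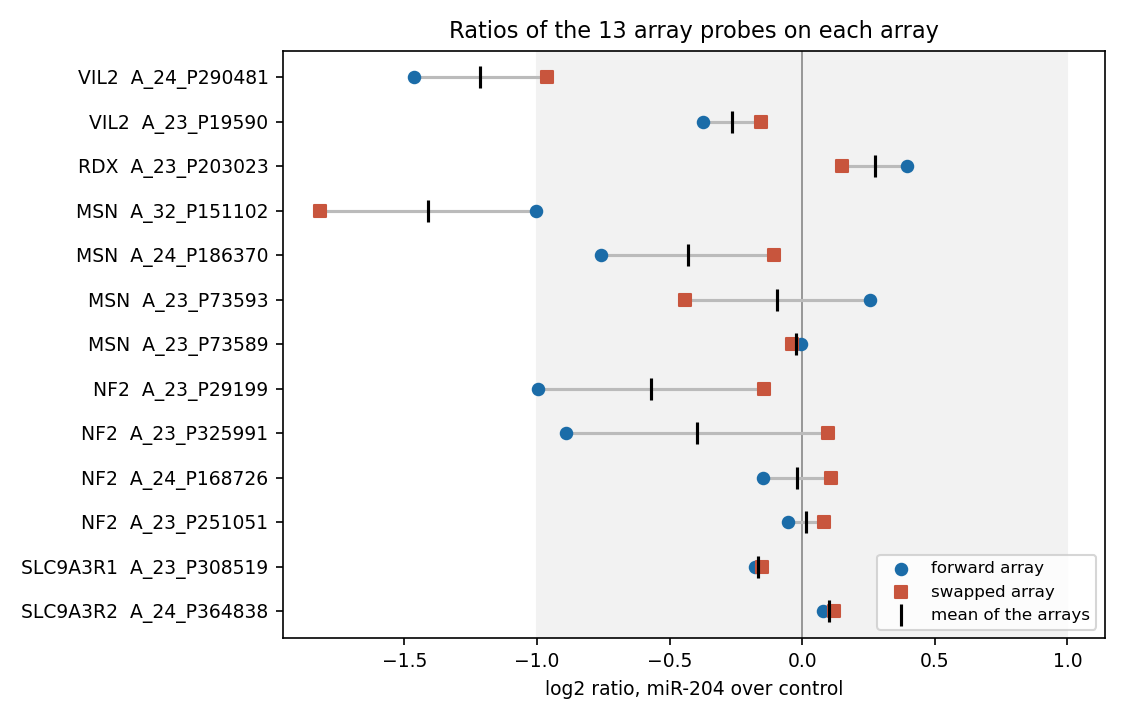
Log2 ratio of miR-204 over control for each of the 13 array probes on the forward array (blue circles) and the swapped array (red squares), with the mean as a black bar. The shaded range marks a change under 2-fold. VIL2 A_24_P290481 and MSN A_32_P151102 have a mean outside it, the latter not measured above background in miR-204 RNA.

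Ezrin, the ERM protein of epithelial microvilli, was read by A_24_P290481 and A_23_P19590, which both name NM_003379. A_24_P290481 is at chr6:159117505-159124579 on hg18, the build of all positions in the files. Its listed ends are 7075 bases apart, where most members span 60, so it reads across a splice junction. A_23_P19590 is at chr6:159107658-159107717, farther towards the 3′ end of the gene, which runs on the minus strand.

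At A_24_P290481 the processed intensity on the forward array was 298 in control RNA and 108 in miR-204 RNA. On the swapped array it was 205 in control RNA and 105 in miR-204 RNA. The spots as scanned, before correction, had a mean brightness of 240 over a local background of 57 in control RNA of the forward array and 148 over 77 in miR-204 RNA. After normalization the ratio was -1.46 on the forward array and -0.96 on the swapped array, a mean of -1.21, or 43.1% of the control. Both miR-204 values lay below both control values. Of all counted probes, 0.269% had a mean ratio this low or lower.

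Within each array, the technical spread at this signal was smaller than the ratio. Across the spots of 24 probes of like signal that are spotted 10 times, the median SD of the log2 ratio within an array was 0.09 on both arrays. The software's own error for the spot was 0.25 on the forward array and 0.23 on the swapped array on the log2 scale. Among the 999 counted probes nearest in signal, the SD of the ratios was 0.46 on the forward array and 0.30 on the swapped array. The ratios of the 2 arrays differed by 0.50 at this array probe, which the spread within an array does not measure. These values describe spots and probes, not cultures.

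At A_23_P19590, the 3′ array probe of ezrin, the processed intensity was 4514 in control RNA and 3431 in miR-204 RNA on the forward array, and 2950 and 2662 on the swapped array. The ratio was -0.37 on the forward array and -0.15 on the swapped array, a mean of -0.26, or 83.3% of the control. Among probes of like signal the SD was 0.34 on the forward array and 0.19 on the swapped array. The ratios at this array probe were thus about 1 SD from 0 or less, as for radixin below. Both ezrin array probes had ratios below 0 on both arrays, with means of 2.32-fold lower at the junction and 1.20-fold lower towards the 3′ end. The share of counted probes as low as the 3′ one was 14.6%. The difference between them, junction minus 3′ end, was -1.09 on the forward array and -0.81 on the swapped array.

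The call at A_24_P290481 depended on the background correction. With normexp at an offset of 50 followed by loess its mean ratio was -0.83, and with no background correction -0.84, both short of 2-fold. It was not past 2-fold on the swapped array alone. Chosen after seeing the data, normexp without an offset gave -1.12 and loess on the processed signals gave -1.24.

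The 3 genes whose pair of ratios lay nearest to A_24_P290481, among 17491 gene-named probes that passed the flag in all 4 channels, were OTUD3, SKI and EHBP1. SKI, a repressor of TGF-beta signalling, had -1.35 on the forward array and -0.84 on the swapped array. OTUD3, a deubiquitinase, also had -1.35 and -0.84. EHBP1, which joins endocytic vesicles to actin, had -1.59 and -0.80. Nearest to A_23_P19590 were TTC23, COL4A3BP (CERT1, a ceramide carrier) and CRTC1 (a CREB coactivator), all with means from -0.27 to -0.26.

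**Figure D3:**
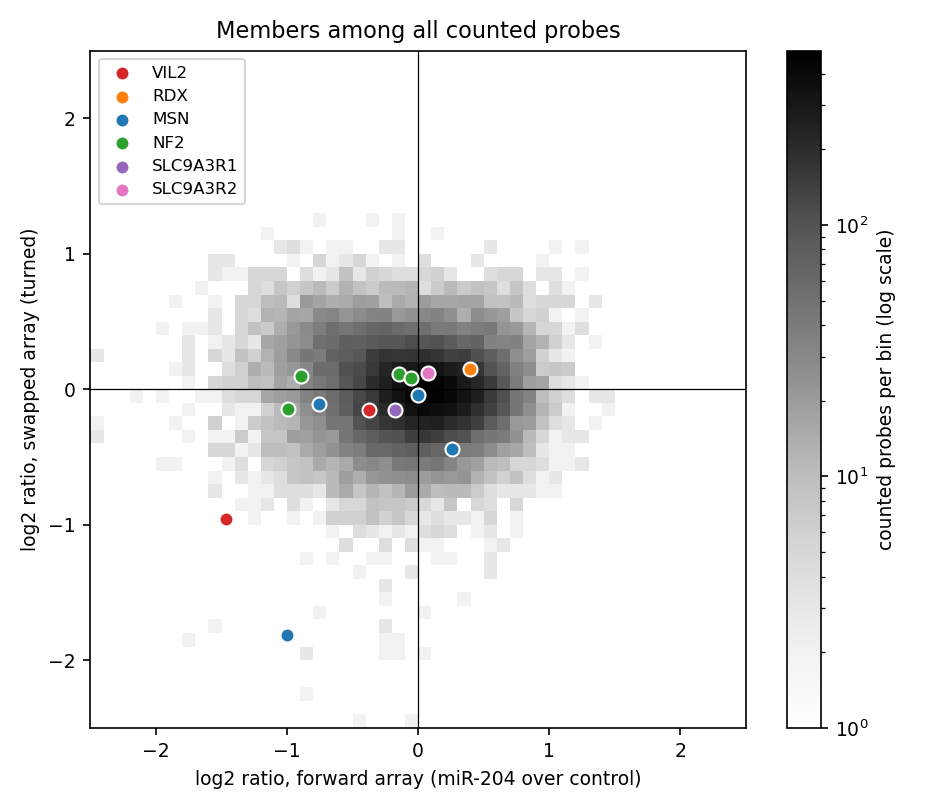
Log2 ratio of miR-204 over control on the forward array (x) and on the swapped array (y, sign turned) for all 25270 counted probes, in grey by number per bin on a log scale, with values past 2.5 placed in the edge bins. The 13 member array probes are coloured by gene, and VIL2 A_24_P290481 and MSN A_32_P151102 lie in the sparse lower left.

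Moesin, the ERM protein that prevails in leukocytes and endothelium, was read by 4 array probes for NM_002444. The brightest, A_23_P73589 at chrX:64878326-64878385, had processed intensities of 2268 in control RNA and 2228 in miR-204 RNA on the forward array and 1590 and 1556 on the swapped array. Its ratios were -0.004 and -0.04, and control and miR-204 values overlapped. A_23_P73593, at chrX:64878046-64878105, had ratios of 0.26 on the forward array and -0.44 on the swapped array, so the sign changed with the dye.

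The remaining moesin array probes were dim. A_32_P151102, at chrX:64868465-64868524, had processed intensities of 29.1 in control RNA and 15.3 in miR-204 RNA on the forward array, and 13.8 and 5.77 on the swapped array. It was not well above background in miR-204 RNA on either array, so only a bound can be given, and the measured ratios of -1.002 and -1.82 are not an estimate of the change. With loess and Aquantile normalization of the processed signals and the lowest signal well above background as the floor, control was at least 1.04-fold higher than miR-204. Probes of like signal spotted 10 times, of which there were 7, had a median SD within an array of 0.85 on the forward array and 0.77 on the swapped array. Under normexp with an offset of 50 its mean ratio was -0.25. A_24_P186370, at chrX:64873493-64873804, had measured ratios of -0.76 and -0.11 and was likewise not well above background in miR-204 RNA. Its bound in the same setting was 1.29-fold. Its mean ratio was -0.15 under normexp with an offset of 50 and -0.08 without background correction, smaller falls than that bound. Both bounds thus hold for their own setting alone. Both array probes were counted only because their control signal passed the flag.

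Radixin, the ERM protein prominent in liver, was the only ERM mRNA with higher values on both arrays. Its array probe A_23_P203023, at chr11:109606050-109606109, had processed intensities of 1115 in control RNA and 1479 in miR-204 RNA on the forward array, and 768 and 857 on the swapped array. The ratios were 0.40 and 0.15, a mean of 0.27 or 121% of the control. At or below this mean were 88.9% of counted probes. Among probes of like signal the SD was 0.39 on the forward array and 0.24 on the swapped array, so the ratios were about 1 SD from 0 or less.

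Merlin (NF2) was read by 4 array probes. Those towards the 5′ end, A_23_P29199 at chr22:28387293-28391002 and A_23_P325991 at chr22:28391004-28394331, span 3710 and 3328 bases and name NM_181831. A_23_P29199 had processed intensities of 176 in control RNA and 88.3 in miR-204 RNA on the forward array, and 115 and 104 on the swapped array. The ratios were -0.996 on the forward array and -0.14 on the swapped array. A_23_P325991 had ratios of -0.89 on the forward array and 0.10 on the swapped array. At both, the lower value in miR-204 RNA was large on the forward array alone, and the part of the ratio that changed sign with the dye was -0.43 and -0.49.

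The merlin array probes towards the 3′ end were near 0. A_24_P168726, at chr22:28407460-28407519, had ratios of -0.15 and 0.11. A_23_P251051, at chr22:28424507-28424566, names the transcripts NM_181832, NM_016418, NM_000268 and NM_181829. NM_181831 is not among its listed names, but such lists are short and do not show whether that transcript is read. A_23_P251051 had processed intensities of 8095 in control RNA and 7723 in miR-204 RNA on the forward array, and 5228 and 5497 on the swapped array. Its ratios were -0.05 and 0.08.

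The scaffolds showed small ratios with the same sign on both arrays. NHERF1 (SLC9A3R1), which anchors CFTR and the phosphate transporter of the proximal tubule, was read by A_23_P308519 at chr17:70276798-70276860. Its processed intensity was 1539 in control RNA and 1357 in miR-204 RNA on the forward array, and 1179 and 1061 on the swapped array. The ratios were -0.18 and -0.15, or 89.1% of the control, and the arrays differed by only 0.03. NHERF2 (SLC9A3R2), its paralogue, was read by A_24_P364838 at chr16:2028291-2028350, with 1996 in control RNA and 2074 in miR-204 RNA on the forward array and 1404 and 1531 on the swapped array. The ratios were 0.08 and 0.12, or 107% of the control. For both scaffolds the ratio on each array was within 1 SD of that of probes of like signal.

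In VIL2 and NF2 the ratio on the forward array was lower the nearer the array probe lay to the 5′ end. In MSN, on the forward array, only the 2 array probes below the flag in miR-204 RNA were low, and the 2 measured ones ran the other way. This order was noticed after the values were seen, and with 2 array probes in VIL2 any difference gives an order. In VIL2 and NF2 the most 5′ array probe was also dimmer than the most 3′ one and spanned more bases. Position, signal and span cannot be told apart here. Along the transcript, MSN had -1.002, -0.76, 0.26 and -0.004 on the forward array, and NF2 had -0.996, -0.89, -0.15 and -0.05. On the swapped array the order was less regular, with MSN at -1.82, -0.11, -0.44 and -0.04 and NF2 at -0.14, 0.10, 0.11 and 0.08.

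**Figure D4:**
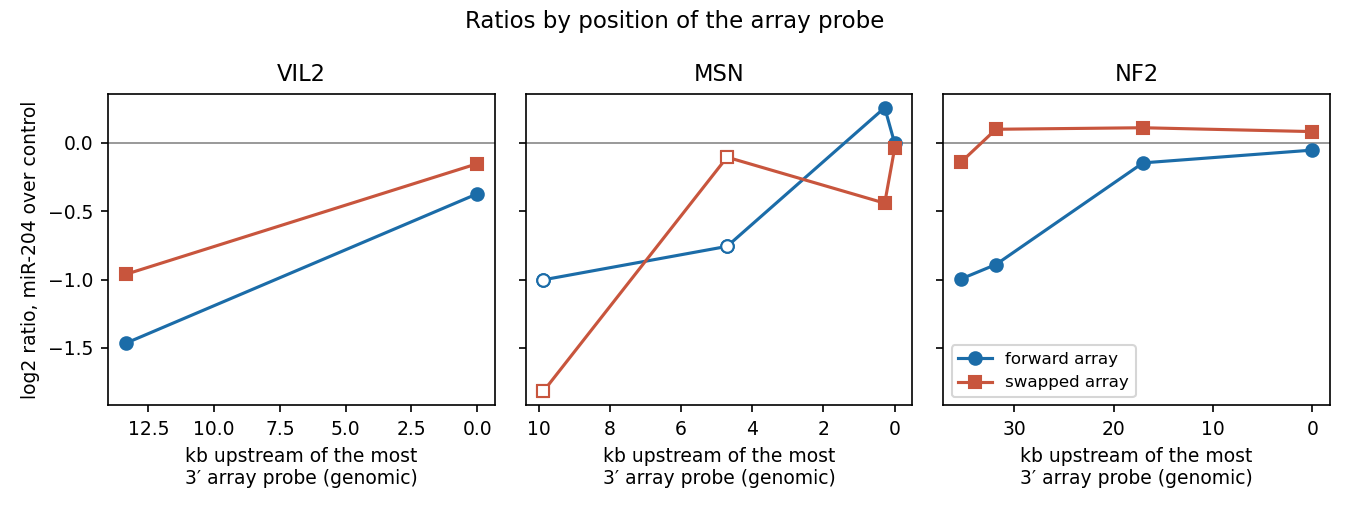
Log2 ratio of miR-204 over control against the genomic distance in kb upstream of the most 3′ array probe of the gene, for VIL2, MSN and NF2, on the forward array (blue circles) and the swapped array (red squares). Open symbols were not well above background in all 4 channels. On the forward array the most 5′ array probes of VIL2 and NF2 lie near or below -1, and on the swapped array this holds for VIL2. The lowest MSN value on each array is an open symbol.

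A lower ratio at the 5′ probe was common on the array. Over 3691 genes whose most 5′ and most 3′ counted probes lay 1 to 300 kb apart, the 5′ minus 3′ difference of the ratios had a median of -0.26 on the forward array, with the 5′ probe lower in 73.4% of genes. On the swapped array the median was -0.04 and the share 55.2%. With both probes past the flag in all 4 channels the median was -0.26 over 3148 genes on the forward array and -0.03 on the swapped array. The 5′ side was read from the order of the listed coordinates, which fitted the RefSeq strand for 99% of 17765 probes and for 6 of 6 members. Counted probes that span at least 100 bases, 3152 in number, had a median of -0.16 on the forward array and 0.01 on the swapped array, against 0.04 and -0.01 for 22030 with shorter spans.

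Against these genes, the difference of -0.94 in NF2 on the forward array had 9.08% of genes at or below it, and that of -0.22 on the swapped array had 28.6%. For VIL2, -1.09 on the forward array had 5.77% of genes at or below it and -0.81 on the swapped array had 2.90%. On both arrays at once, 11 of the 3691 genes, VIL2 included, were at or below the VIL2 values. The difference in MSN rests on the array probe below the flag and is not ranked here. What sets this difference between array probes was not tested.

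**Figure D5:**
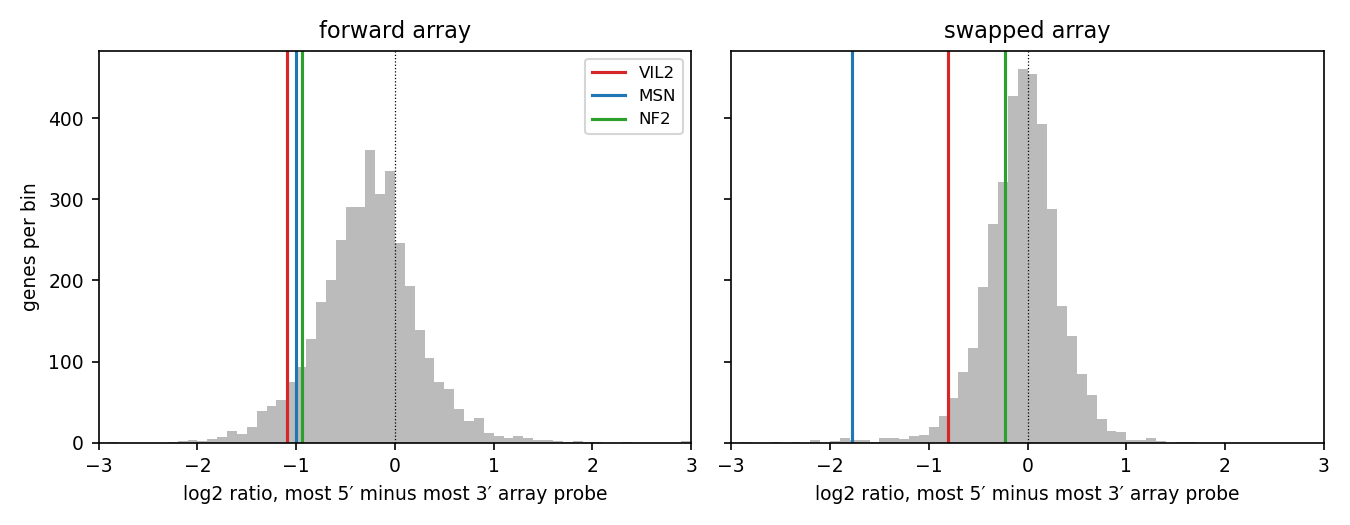
Number of genes, of 3691, by the difference of the log2 ratios of their most 5′ and most 3′ counted probes, in bins of 0.1, on the forward array (left) and the swapped array (right), with VIL2, MSN and NF2 as vertical lines. The bulk lies left of 0 on the forward array and near 0 on the swapped array.

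Genes that work with the members were examined as 6 lists, of which no counted probe was past 2-fold in either direction. With 0.518% of all counted probes lower and 0.123% higher, this is near the background for lists of this size. Without a fold threshold, 23.2% of all counted probes were lower on both arrays and 24.2% were higher on both. The counts for each list are to be read beside these shares. Among the membrane anchors of ERM proteins, such as CD44 and ICAM1, 12 array probes were counted, with a median mean ratio of -0.11, 4 lower and 3 higher on both arrays. The lowest was PDPN, the mucin-type podoplanin, at -0.26, and the highest was the death receptor FAS at 0.36. The partners and relatives of the NHERF scaffolds had 19 counted array probes, 5 lower and 4 higher on both arrays, and a median of -0.03, from the purinergic receptor P2RY1 at -0.58, with -0.54 on the forward array and -0.63 on the swapped array, to the kinase SGK (SGK1) at 0.27.

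Kinases, phosphatases and lipid kinases that act on ERM proteins had 45 counted array probes, 8 lower and 6 higher on both arrays, and a median of 0.01. The lowest was PIP5K1A, which makes the PIP2 that opens ERM proteins, at -0.98 in the mean, but with -1.76 on the forward array and -0.20 on the swapped array. The highest was PPP1R12A, the targeting subunit of myosin phosphatase, at 0.30, with opposite signs on the arrays. The merlin and Hippo list had 45 counted array probes and a median of -0.13. Of these, 16 were lower and 6 higher on both arrays, beside 23.2% and 24.2% of all counted probes. Its lowest was WWTR1, the coactivator TAZ, at -0.86, with -1.01 on the forward array and -0.71 on the swapped array, and its highest was AMOT, a scaffold that binds YAP, at 0.40.

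Other FERM domain genes had 53 counted array probes and a median of -0.07. Of these, 21 were lower on both arrays and 4 were higher on both, where 23.2% and 24.2% of all counted probes were. The lowest was TLN2 (talin 2, which links integrins to actin), at -0.9999 in the mean, just short of the threshold, with -1.37 on the forward array and -0.63 on the swapped array. The highest was EPB41L4B at 0.34. Partners in the microvillus and cell cortex had 23 counted array probes, 7 lower and 6 higher on both arrays, and a median of 0.10. MPP5 (PALS1, a polarity scaffold) was lowest at -0.82 and ACTB (beta-actin) highest at 0.43. The lists describe these RNAs only, and with 1 replicate none was tested.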

How the data were processed

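The authors extracted both arrays with Feature Extraction 9.5.3.1. Processed signals, as deposited, are intensity values from which this software had removed background and dye differences. The mean spot and local background intensities were deposited uncorrected. The deposited log ratio is log10 of Cy5 over Cy3, and a deposited score gives the software's error of it, here turned to log2. The authors' series table holds log2 ratios of miR-204 over control. Depth does not apply to arrays, and their number limits the precision.

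Control spots and 128 outlier-flagged probes were set aside, and spots of a probe were averaged. Log2 processed signals were quantile normalized across the 4 channels with limma 3.58.1 in R 4.3.3. Ratios were then averaged over both arrays, and counts were made in Python 3.11.15. In simulated spots, all past the flag and with changes larger than the 2-fold threshold, the steps recovered 198 of 200 changed spots of 27424. The simulated noise was below the SD of the ratios on either array. This checks the steps, not how well changes near 2-fold are found. A counted probe was well above background on both arrays in 1 of the RNAs. The call required a mean of 2-fold and the same sign on each array. Symbols were matched to the RefSeq gene table, where 3 member names were current and 3 were older names.

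Named are all member array probes, the 3 nearest genes to each VIL2 array probe, and from each gene list those past 2-fold, the lowest and the highest. The members and lists were chosen with earlier results of these data known. Probe sequences, hg18 annotation and protein sequences were not used here.

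Alternatives tried were other background corrections and normalizations, other deposited values, other rules for dim or flagged spots, each array alone, other thresholds, 1 value per gene, and tests. The tests were limma's and the Student's t-test named in the methods, which was run here over the channels. Both treat measurements of 1 replicate as if independent and so do not compare the conditions.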

Additional observations from a re-analysis of the deposited data

How the results depend on the processing

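The mean ratio of VIL2 A_24_P290481 stayed below 0 under all 10 other signal and normalization settings, from -1.24 to -0.83. Its values were -0.83 under normexp with an offset of 50 and loess, and -0.84 for mean signals without background correction, both short of 2-fold. Each array alone gave -1.46 and -0.96. VIL2 A_23_P19590 ranged from -0.29 to -0.24, with -0.37 and -0.15 for each array alone. The number of member array probes lower by 2-fold was 2 in the main setting. It was 0 under normexp with an offset of 50, 0 without background correction, 0 with limma's test after Benjamini-Hochberg adjustment and 0 with the methods' test after it, where limma called 2 and the methods' test 1 at an unadjusted p under 0.05. It was 1, VIL2 A_24_P290481, when all 4 channels had to be well above background, and 1, the dim MSN A_32_P151102, at 2-fold on each array, where VIL2 A_24_P290481 was lost. It was 1, VIL2 A_24_P290481, under normexp without an offset, which was chosen after seeing the data, as was loess on the processed signals. Either array alone gave from 1 to 2, without the forward array 1 (MSN A_32_P151102). MSN A_32_P151102 ranged from -1.42 to -0.17, so its call rests on the background correction. No member was higher by 2-fold under any setting run. The cause of the changes was not tested, except that fewer channels or stricter thresholds leave fewer calls by construction. As a gene mean, VIL2 and MSN moved when the brightest array probe was used, to -0.26 and -0.02. Signal over background limits the 2 dim MSN array probes. Each ratio pairs both RNAs within an array, but no test over pairs could compare the conditions because no replicate transfection is named.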

Other observations

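An array probe outside the members, A_32_P127492, is described in the files as similar to ezrin and carries the name THC2533833. It was chosen after its values were seen. It lies at chr6:159107023-159107082 on hg18, beyond the 3′ array probe of VIL2, but its coordinates are listed in the plus direction, opposite to VIL2. It was well above background in all 4 channels, and its ratios were 0.14 on the forward array and -0.60 on the swapped array, with opposite signs.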
